A study of Mus musculus with 12 samples.

Results

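The RNA of translation initiation and elongation factors was described in mouse CD8+ T cells that were stimulated with an antibody to CD3, treated with an interferon, or both. The factors were taken as all array rows whose probe annotation gave exactly 1 gene symbol starting with Eif or Eef, without the Eif2ak kinases. This rule used no measured value, but it was chosen with earlier results of these data known. It gave 66 rows of 61 genes, out of 23521 rows of 22180 genes with 1 symbol and 33793 rows in all. A row is 1 probe set of the array, and 4 of the genes had several rows, which are lettered here (Eef1a1, Eif3d, Eif4a1 and Eif4a2). Another 10 rows whose annotation joined an Eif or Eef symbol to other symbols were left out, as were 4 Eif2ak rows.

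The cells were CD8+ lymphocytes from spleens of C57BL/6 mice, purified by removing other cell types and kept for 6 h before RNA extraction. They were measured on 12 single-channel arrays, 3 in each of 4 groups: anti-CD3 antibody with IFN-4a, anti-CD3 antibody alone, PBS with IFN-4a, and PBS alone. All groups shared strain, organ, purification and culture time, and the PBS groups are called resting and the anti-CD3 groups stimulated below. The labels number the replicates and name no animal, day or batch, so the replicates may be technical, and a p-value then speaks of the spread between these arrays alone.

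The 5 CD8 T cell marker rows (Cd8a, Cd8b1, Cd3d, Cd3e and Cd3g) stood at 8 or above before centring, on a scale taken as log2, as judged from the decimal steps left in the deposited values. None of the 4 B cell, 3 CD4 T cell, 3 NK cell, 6 myeloid, 4 granulocyte and 1 platelet marker rows did so. A row was counted as at 8 or above when its 6 highest arrays were. The deposited values had been centred on each row's median over the 12 arrays, so a value here is a distance from that median and levels of different genes cannot be compared. In the interferon comparisons Ifit1, an interferon-induced antiviral gene, was 14.7-fold higher in stimulated and 35.7-fold higher in resting cells, and Nr4a1, an immediate early gene of T cell receptor signalling, was 11.4-fold higher with anti-CD3 in the presence and 10.8-fold higher in the absence of IFN-4a. Replicate arrays correlated at 0.608 or more over all rows, and arrays of different groups at 0.527 or less.

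Translation starts when eIF2 carries the initiator tRNA to the small ribosomal subunit, which eIF1, eIF1A, eIF3 and eIF5 help to load on the messenger and to scan for the start codon. The cap-binding complex eIF4F, made of eIF4E, the helicase eIF4A and the scaffold eIF4G, recruits the messenger, and the 4E-binding proteins hold eIF4E back until the kinase mTOR phosphorylates them. eEF1 then brings each charged tRNA to the ribosome, eEF2 moves the ribosome along, and T cells that leave quiescence are known for enlarging this machinery before they divide.

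Most factor rows were higher with anti-CD3. In the presence of IFN-4a 42 of the 66 rows were called higher and 3 lower in anti-CD3 than in PBS cells, and in its absence 41 were called higher and 5 lower, by limma at a Benjamini-Hochberg adjusted p under 0.05. In both settings 8 rows were at least 2-fold higher, and these were Eif1a, Eif2b3, Eif3b, Eif4a1 row A, Eif4e, Eif5a, Eef1e1 and Eef1aknmt. Of all 23521 rows, 634 were called at least 2-fold higher with IFN-4a and 615 without it. The shares of all rows called at any size were 12.8% higher and 14.5% lower (27.3% in either direction) with IFN-4a. Without it they were 13.9% higher and 17.5% lower (31.4%). The median factor row changed by 0.26 (log2) with IFN-4a and 0.30 without, against -0.034 and -0.035 over all rows. In these bulk samples a lower value from fewer cells of a type cannot be told apart from one due to less RNA per cell. Factor rows were bright more often than other rows (52 of 66 stood at 8 or above before centring, against 28.8% of all rows), and bright rows are called more often in both directions. Only the 6 highest arrays of a row decided this, so a row could count as bright through the groups where it is high. The shares among bright rows are therefore descriptive. The 14 other factor rows were Eif2s3y, Eif2b4, Eif3d row A, Eif4e1b, Eif4e3, Eif4a3, Eif4a3l1, Eif5a2, Eef1a2, Eef2k, Eef1akmt2, Eef1akmt3, Eef1aknmt and Eif2c5. Of these 14, 28.6% were called higher in each setting. Whether a missing call in such a row reflects weak signal was not tested. Among rows at 8 or above, 73.1% of factor rows and 31.4% of all rows were higher with anti-CD3 in the presence of IFN-4a, and 71.2% against 34.0% in its absence. Among the same rows, 3.85% of factor rows and 33.1% of all rows were lower in the presence of IFN-4a, and 7.69% against 34.3% in its absence. The anti-CD3 comparisons with and without IFN-4a compare different arrays. Both were read from the same fit, which estimated each row's spread over all 12 arrays, so their calls are not independent. The comparisons had 40 raised factor rows in common, 95.2% of those raised with IFN-4a and 97.6% of those raised without it. Over all rows these shares were 86.5% and 79.8%. Eif4b and Eefsec were called higher only in the presence of IFN-4a and the pseudogene Eif1-ps3 only in its absence (in both settings when anti-CD3 with IFN-4a replicate 2 is left out, adjusted p = 0.0207), and none of the 3 passed the test of the difference between both changes (adjusted p = 0.315, 0.459 and 0.738).

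IFN-4a lowered 18 of the 66 factor rows in resting cells and 1 in stimulated cells. In stimulated cells 0 rows were called higher and 1 lower with IFN-4a, where 1.97% and 1.36% of all rows were (3.32% in either direction). An unadjusted p under 0.05 was reached there by 16 factor rows and by 3494 of all 23521 rows. In resting cells 0 rows were called higher (1 without PBS replicate 1, Eif4e at 0.21) and 18 lower, against 4.17% and 8.08% of all rows (12.2% in either direction). There 27 factor rows and 6158 of all 23521 rows had an unadjusted p under 0.05. At 8 or above these were 22 of 52 factor rows and 2940 of 6777 rows. Among rows at 8 or above the resting share called lower was 28.8% of factor rows and 17.7% of all rows. The share called higher was 0% of factor rows and 8.22% of all rows. In either direction the shares were thus close, at 28.8% and 25.9%. The median factor row changed by -0.081 in stimulated and -0.11 in resting cells, against -0.0031 and -0.011 over all rows and -0.056 and -0.069 over all rows at 8 or above. The difference between the stimulated and the resting IFN-4a change passed for 0 of 66 factor rows and 0.855% of all rows. For this difference 14 factor rows and 2542 of all 23521 rows had an unadjusted p under 0.05. On the single arrays the median over the 66 rows was 0.059 to 0.11 with anti-CD3 and IFN-4a, 0.17 to 0.20 with anti-CD3, -0.24 to -0.19 with PBS and IFN-4a, and -0.13 to -0.073 with PBS, so that these ranges did not overlap. Over all 23521 rows it was -0.0070 to -0.0019, -0.0163 to -0.0077, 0.0067 to 0.0169 and 0.0044 to 0.0091 in the same order. There only the ranges of both resting groups overlapped. Medians per array over rows at 8 or above were not taken, and these medians restate the same arrays as the calls.

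**Figure D1:**
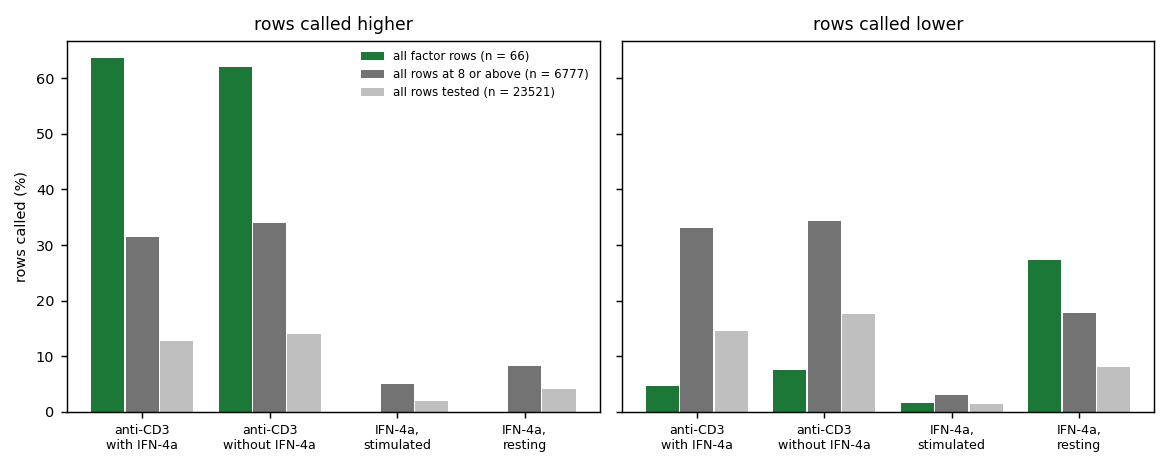
Share of rows called higher (left) and lower (right) in 4 comparisons, in percent, for all 66 factor rows (green), all 6777 rows at 8 or above before centring (dark grey) and all 23521 rows tested (light grey). The green bars stand above both grey bars for rows higher with anti-CD3 and for rows lower with IFN-4a in resting cells, and at 0 for rows higher with IFN-4a.

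Promoters were searched for 3 kinds of motif, in windows from 250 bases before to 50 after the start of each gene, as given by RefSeq for GRCm38.p6. Of the 61 genes 46 had a window. The letters CACGTG, the E-box that transcription factors such as Myc can bind, were found in 12 of them (26.1%), against 8.09% of 27025 genes and 12.6% of 5227 genes with a row at 8 or above. Of the 31 genes with a window and a row raised by anti-CD3 without IFN-4a, 9 held it, as did 3 of the 15 that were not raised. TGACGTCA or TGACGCAA, letters bound by CREB and ATF factors, was found in 1 of the 46 (Eef2, 2.17%) and in 2.58% of all genes. GAAANNGAA, an interferon-type motif, was found in 1 of the 46 (Eif3a, 2.17%) and in 9.76% of all genes. Both strands were read, and no bases of different motifs overlapped. A match describes letters only. The 100 bases before the start are shown 5′ to 3′ for 3 genes that rose (Eif4e, Eif5a, Eif1b) and 3 that did not (Eef2k, Eif3f, Eef2), to set the E-box, in capitals, beside both outcomes. They are Eif4e at chr3:138527168-138527267 (+), Eif5a at chr11:69921387-69921486 (-), Eif1b at chr9:120492506-120492605 (+), Eef2k at chr7:120842731-120842830 (+), Eif3f at chr7:108934315-108934414 (+) and Eef2 at chr10:81176531-81176630 (+).
Eif4e: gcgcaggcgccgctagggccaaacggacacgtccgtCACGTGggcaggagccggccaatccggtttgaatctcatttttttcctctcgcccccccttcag
Eif5a: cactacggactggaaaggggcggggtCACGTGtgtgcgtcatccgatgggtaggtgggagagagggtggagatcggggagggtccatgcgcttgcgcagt
Eif1b: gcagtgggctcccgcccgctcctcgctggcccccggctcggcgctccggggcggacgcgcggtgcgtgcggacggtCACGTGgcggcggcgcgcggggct
Eef2k: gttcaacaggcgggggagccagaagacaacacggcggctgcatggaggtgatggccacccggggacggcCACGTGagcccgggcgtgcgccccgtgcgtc
Eif3f: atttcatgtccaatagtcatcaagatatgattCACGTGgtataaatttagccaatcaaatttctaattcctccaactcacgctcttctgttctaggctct
Eef2: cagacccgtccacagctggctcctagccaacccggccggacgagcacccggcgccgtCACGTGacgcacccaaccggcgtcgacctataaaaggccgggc

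All 5 measured factors of scanning and start codon selection rose with anti-CD3 in both settings; Eif1, the main start codon fidelity factor, is not analysed here. Eif1a and Eif1ax encode close copies of eIF1A, which opens the small subunit for scanning; probe sequences were not used here, so signal shared between these copies was not tested. Eif1a read 0.55, 0.68 and 0.62 on the anti-CD3 with IFN-4a arrays, 0.56, 0.74 and 0.55 on the anti-CD3 arrays, -0.64, -0.78 and -0.74 on the PBS with IFN-4a arrays and -0.78, -0.80 and -0.55 on the PBS arrays. Every stimulated array lay above every resting array, by 1.34 on the log2 scale with IFN-4a (SE 0.078, adjusted p = 1.43e-08) and 1.33 without (SE 0.078, adjusted p = 1.44e-08), or 2.53-fold and 2.51-fold. Eif1ax read 0.15, 0.28 and 0.21 in cells given anti-CD3 and IFN-4a, 0.59, 0.62 and 0.63 in cells given anti-CD3, -0.40, -0.54 and -0.62 in resting cells given IFN-4a and -0.15, -0.20 and -0.22 in resting cells. These 4 sets of arrays were all apart, highest with anti-CD3 alone and lowest with PBS and IFN-4a. Its anti-CD3 change was 0.73 with IFN-4a and 0.80 without. Eif5b, the GTPase that joins the subunits, rose by 0.90 with IFN-4a and 0.79 without. Eif5, which makes eIF2 hydrolyse its GTP, rose by 0.26 with IFN-4a and 0.49 without, and Eif1b, a copy of the start codon fidelity factor eIF1, by 0.33 with IFN-4a and 0.44 without. The Eif1b call with IFN-4a was lost without anti-CD3 with IFN-4a replicate 2 or 3 or PBS with IFN-4a replicate 1 (adjusted p up to 0.116).

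Of the initiator tRNA carriers, the β subunit of eIF2 and the alternative factor Eif2a rose, while Eif2d and the Y-linked γ subunit Eif2s3y did not pass. Eif2s1 and Eif2s3x, the other eIF2 subunits, are not analysed here. Eif2a, an initiation factor that works apart from eIF2, read 0.27, 0.19 and 0.33 with anti-CD3 and IFN-4a, 0.42, 0.51 and 0.37 with anti-CD3, -0.19, -0.22 and -0.31 with PBS and IFN-4a, and -0.22, -0.25 and -0.24 with PBS. Eif2s2, the β subunit, read 0.27, 0.55 and 0.43 on the anti-CD3 with IFN-4a arrays, 0.31, 0.32 and 0.20 on the anti-CD3 arrays, -0.42, -0.52 and -0.46 on the PBS with IFN-4a arrays and -0.20, -0.39 and -0.34 on the PBS arrays. In both rows the stimulated arrays were above all resting arrays. The Eif2a change was 0.50 with IFN-4a and 0.67 without (SE 0.059 and 0.059, adjusted p = 1.4e-05 and 8.09e-07). The Eif2s2 change was 0.88 with IFN-4a and 0.59 without, and the difference of 0.29 between them did not pass (adjusted p = 0.314). Eif2d had changes of 0.090 with IFN-4a and 0.014 without and Eif2s3y of -0.045 with IFN-4a and -0.0009 without. The Eif2s3y row was not at 8 or above before centring.

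The 5 subunits of eIF2B, the exchange factor that reloads eIF2 with GTP, split. The subunits Eif2b1, Eif2b3 and Eif2b5 rose, and Eif2b2 and Eif2b4 did not pass in either setting. The Eif2b4 row was the one of these not at 8 or above before centring. Eif2b3, the γ subunit, read 0.68, 0.68 and 0.67 in cells given anti-CD3 and IFN-4a, 0.70, 0.86 and 0.75 in cells given anti-CD3, -1.18, -1.02 and -0.92 in resting cells given IFN-4a and -0.73, -0.78 and -0.67 in resting cells. Its stimulated arrays exceeded the resting ones by 1.72 with IFN-4a (SE 0.068, adjusted p = 3.51e-10) and 1.5 without (SE 0.068, adjusted p = 1.41e-09), which is 3.29-fold and 2.82-fold. Eif2b1, the α subunit, read 0.24, 0.25 and 0.13 with anti-CD3 and IFN-4a, 0.40, 0.52 and 0.29 with anti-CD3, -0.47, -0.52 and -0.65 with PBS and IFN-4a, and -0.13, -0.27 and -0.42 with PBS. It was higher on every stimulated array, by 0.75 with IFN-4a and 0.67 without. Eif2b5, the catalytic ε subunit, rose by 0.50 with IFN-4a and 0.60 without. Eif2b2 changed by 0.14 (95% interval 0.0029 to 0.27) and 0.073 (-0.061 to 0.21), and Eif2b4 by 0.10 (-0.031 to 0.23) and 0.017 (-0.11 to 0.15).

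eIF3, the large scaffold of the small subunit, had 13 rows of 12 genes, and 10 rows rose in each setting. The subunit gene Eif3g is not analysed here. Eif3b, a core subunit, read 0.52, 0.55 and 0.50 on the anti-CD3 with IFN-4a arrays, 0.63, 0.69 and 0.58 on the anti-CD3 arrays, -0.71, -0.71 and -0.70 on the PBS with IFN-4a arrays and -0.59, -0.53 and -0.50 on the PBS arrays. Eif3a, the largest core subunit, read 0.40, 0.23 and 0.35 in cells given anti-CD3 and IFN-4a, 0.48, 0.47 and 0.41 in cells given anti-CD3, -0.32, -0.37 and -0.35 in resting cells given IFN-4a and -0.34, -0.23 and -0.32 in resting cells. Both rows were higher on all stimulated than on all resting arrays, and within resting cells Eif3b was lower on each IFN-4a array. The Eif3b change was 1.23 with IFN-4a (SE 0.050, adjusted p = 4.75e-10) and 1.17 without (SE 0.050, adjusted p = 8.02e-10), or 2.34-fold and 2.25-fold. The Eif3a change was 0.68 with IFN-4a and 0.75 without. Eif3c, Eif3d row B, Eif3i, Eif3j1 and Eif3l rose by 0.61 to 0.85 with IFN-4a and 0.47 to 0.66 without. Of the subunits with an MPN domain, Eif3f fell in both settings and Eif3h in the absence of IFN-4a. Eif3f read -0.13, -0.17 and -0.13 with anti-CD3 and IFN-4a, -0.011, -0.057 and -0.012 with anti-CD3, 0.14, 0.065 and 0.011 with PBS and IFN-4a, and 0.21, 0.27 and 0.20 with PBS. It was lower on every stimulated than on every resting array, with changes of -0.22 with IFN-4a (adjusted p = 0.00537) and -0.25 without (adjusted p = 0.00152). Eif3h had a change of -0.082 with IFN-4a (adjusted p = 0.309) and fell by 0.17 in its absence (adjusted p = 0.023), a call lost without anti-CD3 replicate 1, 2 or 3 or PBS replicate 1 or 2 (adjusted p up to 0.0893). Quantile normalisation also ended the Eif3h call in the absence of IFN-4a (-0.12, adjusted p = 0.115). Eif3e did not pass, at 0.061 with IFN-4a and 0.084 without. Eif3k rose by 0.18 with IFN-4a (adjusted p = 0.0298) and 0.16 without (adjusted p = 0.0495). The Eif3k call with IFN-4a was lost without anti-CD3 with IFN-4a replicate 3 or PBS with IFN-4a replicate 2 or 3 (adjusted p up to 0.126), and the call in its absence without anti-CD3 with IFN-4a replicate 1, 2 or 3 or anti-CD3 replicate 1 or 2 or PBS with IFN-4a replicate 2 or 3 or PBS replicate 1, 2 or 3 (adjusted p up to 0.193). Eif3m rose by 0.20 with IFN-4a and 0.44 without, and its call with IFN-4a was lost without anti-CD3 with IFN-4a replicate 2 or 3 or PBS with IFN-4a replicate 2 or 3 (adjusted p up to 0.149). Eif3d row A rose by 0.36 with IFN-4a and 0.54 without, and its call with IFN-4a was lost without anti-CD3 with IFN-4a replicate 2 or PBS with IFN-4a replicate 1 or 2 (adjusted p up to 0.103).

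eIF4F and its helpers had 13 rows of 10 genes, of which 8 rose with IFN-4a and 7 without, led by the cap-binding protein Eif4e and 1 row of the helicase Eif4a1. The scaffold gene Eif4g1 is not analysed here. Eif4e read 0.69, 0.64 and 0.58 on the anti-CD3 with IFN-4a arrays, 0.65, 0.74 and 0.63 on the anti-CD3 arrays, -0.69, -0.71 and -0.68 on the PBS with IFN-4a arrays and -0.58, -0.85 and -0.96 on the PBS arrays. Stimulated arrays stood apart from resting arrays, with a change of 1.33 with IFN-4a (SE 0.081, adjusted p = 2.47e-08) and 1.47 without (SE 0.081, adjusted p = 8.72e-09), or 2.51-fold and 2.77-fold. Eif4a1 row A read 0.47, 0.56 and 0.45 in cells given anti-CD3 and IFN-4a, 0.61, 0.60 and 0.49 in cells given anti-CD3, -0.49, -0.56 and -0.77 in resting cells given IFN-4a and -0.45, -0.46 and -0.45 in resting cells. It too was higher on all stimulated arrays, by 1.1 (SE 0.071, adjusted p = 4.57e-08) and 1.02 (SE 0.071, adjusted p = 8.81e-08). The rows of the helicase genes disagreed. Eif4a1 row B changed by -0.029 with IFN-4a (adjusted p = 0.805) and fell by 0.19 without it (adjusted p = 0.0231), so the mean of both rows rose by 0.53 with IFN-4a and 0.41 without. The row B call was lost without anti-CD3 replicate 2 or 3 or PBS replicate 2 (adjusted p up to 0.0872). Of the 3 Eif4a2 rows, row B rose by 0.33 with IFN-4a and 0.27 in its absence, a call lost without anti-CD3 replicate 2 (adjusted p = 0.064). The mean of the 3 Eif4a2 rows did not pass, at 0.13 with IFN-4a (adjusted p = 0.211) and 0.018 without (adjusted p = 0.886). Row A did not pass in either setting. Row C had a change of -0.20 in the absence of IFN-4a (adjusted p = 0.119) and passed as lower without anti-CD3 replicate 2 (-0.28, adjusted p = 0.0467) and with a replicate block (adjusted p = 0.0484). The stretch of transcript that each row's probes cover was not used here.

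Of the relatives of Eif4e, 1 of 3 rose. Eif4e2, a cap-binding protein of repressor complexes, rose by 0.16 with IFN-4a and 0.19 without, while Eif4e1b and Eif4e3 did not pass. The rows of Eif4e1b and Eif4e3 were not at 8 or above before centring, and that of Eif4e2 was. The scaffold Eif4g3 rose by 0.25 with IFN-4a and 0.30 without, its relative Eif4g2, which lacks the cap-binding partner's site, by 0.16 with IFN-4a and 0.20 without, and the helicase cofactor Eif4h by 0.26 with IFN-4a and 0.23 without. The Eif4e2 call with IFN-4a (adjusted p = 0.0488) was lost without anti-CD3 with IFN-4a replicate 1, 2 or 3 or anti-CD3 replicate 1 or 2 or PBS with IFN-4a replicate 1 or 3 or PBS replicate 3 (adjusted p up to 0.176), and the call in its absence (adjusted p = 0.0216) without anti-CD3 replicate 3 or PBS replicate 1 (adjusted p up to 0.093). The Eif4g2 call with IFN-4a (adjusted p = 0.0417) was lost without anti-CD3 with IFN-4a replicate 2 or 3 or anti-CD3 replicate 2 or PBS with IFN-4a replicate 1, 2 or 3 or PBS replicate 1 or 3 (adjusted p up to 0.159). Eif4b, the other cofactor of the helicase, changed by 0.18 with IFN-4a (adjusted p = 0.0141) and -0.013 without (adjusted p = 0.889); its call was lost without anti-CD3 with IFN-4a replicate 3 or PBS with IFN-4a replicate 2 (adjusted p up to 0.0625).

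Of the eIF4E-binding proteins, Eif4ebp2 fell and Eif4enif1 and Eif4ebp1 rose in both settings. Eif4ebp2, a 4E-binding protein, read -0.35, -0.11 and -0.024 with anti-CD3 and IFN-4a, -0.12, -0.059 and -0.056 with anti-CD3, 0.024, 0.25 and 0.30 with PBS and IFN-4a, and 0.24, 0.28 and 0.32 with PBS. Eif4enif1, a transporter that binds eIF4E and carries it to the nucleus, read 0.14, 0.20 and 0.13 on the anti-CD3 with IFN-4a arrays, 0.18, 0.083 and 0.22 on the anti-CD3 arrays, -0.13, -0.083 and -0.086 on the PBS with IFN-4a arrays and -0.10, -0.23 and -0.20 on the PBS arrays. Every stimulated array was below every resting array for Eif4ebp2, by the least for PBS with IFN-4a replicate 1, and above every resting array for Eif4enif1. Eif4ebp2 fell by 0.35 with IFN-4a (SE 0.086, adjusted p = 0.00638) and by 0.36 without (SE 0.086, adjusted p = 0.00502), and Eif4enif1 rose by 0.26 with IFN-4a and 0.34 without. Eif4ebp1, the 4E-binding protein best known as an mTOR target, read 0.15, 0.24 and 0.28 in cells given anti-CD3 and IFN-4a, 0.16, 0.067 and 0.19 in cells given anti-CD3, -0.83, -0.57 and -0.46 in resting cells given IFN-4a and -0.23, -0.23 and -0.067 in resting cells. Its stimulated arrays overlapped with and without IFN-4a and lay above all resting arrays, and its resting arrays were lower with IFN-4a than without. The anti-CD3 change was 0.85 with IFN-4a (SE 0.087, adjusted p = 4.02e-06) and 0.31 without (SE 0.087, adjusted p = 0.0125). The difference of 0.53 between them (95% interval 0.27 to 0.80) had the smallest p of the 66 rows and did not pass over all rows (adjusted p = 0.0748). It passed without PBS with IFN-4a replicate 3 (adjusted p = 0.029).

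Eif4a3, the helicase that marks exon junctions for splicing-linked mRNA control, read 0.15, 0.47 and 0.38 with anti-CD3 and IFN-4a, 0.40, 0.47 and 0.37 with anti-CD3, -0.38, -0.58 and -0.41 with PBS and IFN-4a, and -0.31, -0.15 and -0.23 with PBS. It was higher on all stimulated arrays, by 0.79 with IFN-4a and 0.64 without (SE 0.082 and 0.082, adjusted p = 4.6e-06 and 2.91e-05). Its close relative Eif4a3l1 had changes of -0.10 with IFN-4a and -0.055 without, which did not pass. Without anti-CD3 with IFN-4a replicate 1 the change with IFN-4a was -0.23 and passed as lower (adjusted p = 0.0329). Signal shared between Eif4a3 and Eif4a3l1 was not tested.

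eIF5A and eIF6 rose with anti-CD3. Eif5a, which relieves stalled ribosomes and carries the modified residue hypusine, read 0.49, 0.54 and 0.48 on the anti-CD3 with IFN-4a arrays, 0.53, 0.52 and 0.51 on the anti-CD3 arrays, -0.56, -0.54 and -0.48 on the PBS with IFN-4a arrays and -0.54, -0.48 and -0.58 on the PBS arrays. Eif6, which keeps the large subunit apart until it is mature, read 0.38, 0.56 and 0.36 in cells given anti-CD3 and IFN-4a, 0.37, 0.34 and 0.23 in cells given anti-CD3, -0.38, -0.28 and -0.50 in resting cells given IFN-4a and -0.28, -0.31 and -0.23 in resting cells. Stimulated and resting arrays did not overlap in either row. Eif5a changed by 1.03 with IFN-4a (SE 0.050, adjusted p = 2.59e-09) and 1.05 without (SE 0.050, adjusted p = 2.3e-09). IFN-4a changed it by -0.013 in stimulated (95% interval -0.12 to 0.10) and 0.0034 in resting cells (-0.11 to 0.11), and neither passed. Eif6 changed by 0.82 with IFN-4a and 0.59 without, and Eif5a2, the less studied isoform of eIF5A, by 0.39 with IFN-4a and 0.37 without.

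**Figure D2:**
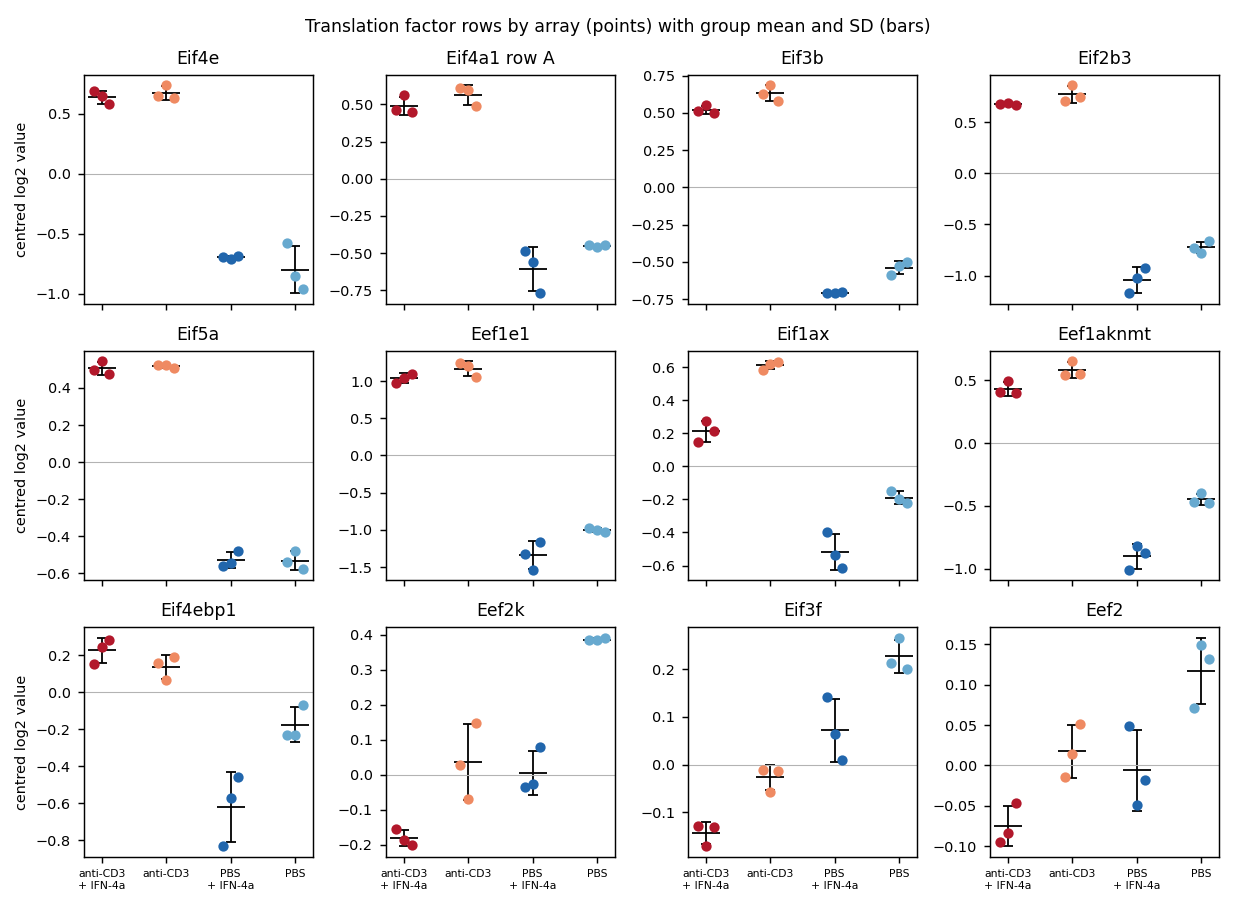
Centred log2 values of 12 factor rows on each array (points, 3 per group), with the group mean and SD (bars), for anti-CD3 with IFN-4a, anti-CD3, PBS with IFN-4a and PBS from left to right. Stimulated arrays lie above resting arrays for Eif4e, Eif4a1 row A, Eif3b, Eif2b3, Eif5a, Eef1e1, Eif1ax and Eef1aknmt, and for Eef2k the PBS arrays lie above all others.

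Among elongation factors the picture was uneven: 4 of 7 rows grouped by symbol under eEF1 rose in each setting, Eef1e1 among them, and the eEF2 row did not pass. Eef1e1, also called p18, which sits in the tRNA synthetase complex rather than in eEF1 itself, had the largest change of all 66 rows in both settings and read 0.97, 1.04 and 1.1 with anti-CD3 and IFN-4a, 1.24, 1.20 and 1.05 with anti-CD3, -1.32, -1.54 and -1.16 with PBS and IFN-4a, and -0.97, -1.0 and -1.03 with PBS. Its arrays were far apart, by 2.38 with IFN-4a (SE 0.085, adjusted p = 1.21e-10) and 2.17 without (SE 0.085, adjusted p = 3.16e-10), or 5.2-fold and 4.49-fold. Of the tRNA carrier itself, Eef1a1 row A read 0.050, 0.40 and 0.36 on the anti-CD3 with IFN-4a arrays, 0.27, 0.42 and 0.43 on the anti-CD3 arrays, -0.48, -0.31 and -0.32 on the PBS with IFN-4a arrays and -0.050, -0.31 and -0.40 on the PBS arrays. That row rose by 0.64 with IFN-4a and 0.63 without, and its stimulated and resting arrays did not overlap, while Eef1a1 row B changed by -0.066 with IFN-4a and -0.068 without and did not pass; the mean of both rows rose by 0.29 with IFN-4a and 0.28 without. Of the exchange factor subunits, Eef1g rose by 0.48 with IFN-4a and 0.30 without and Eef1d by 0.26 with IFN-4a and 0.15 in its absence, a call lost without anti-CD3 with IFN-4a replicate 1 or 3 or anti-CD3 replicate 1, 2 or 3 or PBS with IFN-4a replicate 1 or PBS replicate 1 or 3 (adjusted p up to 0.157). Eef1b2 changed by 0.085 (95% interval -0.041 to 0.21) and 0.10 (-0.022 to 0.23), and the muscle and neuron form Eef1a2 did not pass.

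Eef2, the translocase, read -0.094, -0.084 and -0.047 in cells given anti-CD3 and IFN-4a, -0.014, 0.014 and 0.052 in cells given anti-CD3, 0.049, -0.050 and -0.018 in resting cells given IFN-4a and 0.071, 0.15 and 0.13 in resting cells. Its anti-CD3 changes of -0.069 with IFN-4a (95% interval -0.18 to 0.041, adjusted p = 0.407) and -0.10 without (-0.21 to 0.0095, adjusted p = 0.171) did not pass, although the anti-CD3 arrays were all below the PBS arrays in the absence of IFN-4a. Eef2k, the kinase that phosphorylates and inhibits eEF2, read -0.15, -0.19 and -0.20 with anti-CD3 and IFN-4a, 0.026, -0.070 and 0.15 with anti-CD3, -0.035, -0.026 and 0.078 with PBS and IFN-4a, and 0.38, 0.38 and 0.39 with PBS. The PBS arrays were the highest of the 12, and the anti-CD3 with IFN-4a arrays the lowest. Eef2k fell by 0.19 with IFN-4a (SE 0.060, adjusted p = 0.0342) and by 0.35 without (SE 0.060, adjusted p = 0.000385). The call with IFN-4a was lost without anti-CD3 with IFN-4a replicate 1, 2 or 3 or PBS with IFN-4a replicate 2 or 3 (adjusted p up to 0.134). Quantile normalisation (adjusted p = 0.055) and subtracted array medians (adjusted p = 0.0531) ended it too. Eefsec, which delivers selenocysteine, changed by 0.32 with IFN-4a (adjusted p = 0.00355) and 0.10 without (adjusted p = 0.366).

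Of the 5 enzymes that methylate elongation factors, 2 rose with anti-CD3. Eef1aknmt, which methylates the N terminus and a lysine of eEF1A, read 0.40, 0.50 and 0.40 on the anti-CD3 with IFN-4a arrays, 0.54, 0.65 and 0.55 on the anti-CD3 arrays, -1.01, -0.82 and -0.88 on the PBS with IFN-4a arrays and -0.47, -0.40 and -0.48 on the PBS arrays. Eef2kmt, the eEF2 lysine methyltransferase, read -0.011, 0.10 and 0.041 in cells given anti-CD3 and IFN-4a, 0.089, 0.14 and 0.18 in cells given anti-CD3, -0.40, -0.44 and -0.22 in resting cells given IFN-4a and -0.094, 0.011 and -0.067 in resting cells. In both the stimulated arrays were above the resting arrays of the same IFN-4a setting. Eef1aknmt rose by 1.34 with IFN-4a (SE 0.062, adjusted p = 1.51e-09) and 1.03 without (SE 0.062, adjusted p = 1.9e-08), and the difference of 0.31 did not pass (adjusted p = 0.165). Eef2kmt rose by 0.40 with IFN-4a and 0.19 in its absence (adjusted p = 0.0422), a call lost without anti-CD3 with IFN-4a replicate 3 or anti-CD3 replicate 1, 2 or 3 or PBS with IFN-4a replicate 1 or PBS replicate 1 or 3 (adjusted p up to 0.126). Eef1akmt1, Eef1akmt2 and Eef1akmt3 did not pass, with changes between -0.041 and 0.15.

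The last 3 rows are named like factors without being counted among the complexes. Eif1ad, a nuclear protein with an eIF1A-like domain that acts in small subunit maturation, read 0.32, 0.29 and 0.25 with anti-CD3 and IFN-4a, 0.26, 0.47 and 0.33 with anti-CD3, -0.32, -0.25 and -0.30 with PBS and IFN-4a, and -0.41, -0.39 and -0.50 with PBS. It rose by 0.57 with IFN-4a and 0.79 without (adjusted p = 5.57e-06 and 2.28e-07). Eif1-ps3, which RefSeq lists as a pseudogene of Eif1, read 0.21, -0.13 and 0.25 on the anti-CD3 with IFN-4a arrays, 0.25, 0.29 and 0.20 on the anti-CD3 arrays, 0.056, -0.056 and -0.39 on the PBS with IFN-4a arrays and -0.23, -0.16 and -0.17 on the PBS arrays. Its anti-CD3 arrays overlapped in the presence of IFN-4a (0.24, adjusted p = 0.147) and not in its absence (0.43, adjusted p = 0.00825). Without anti-CD3 with IFN-4a replicate 2 the change with IFN-4a was 0.36 and passed as well (adjusted p = 0.0207), and signal from Eif1 itself was not tested. Eif2c5, listed as a non-coding RNA, did not pass.

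**Figure D3:**
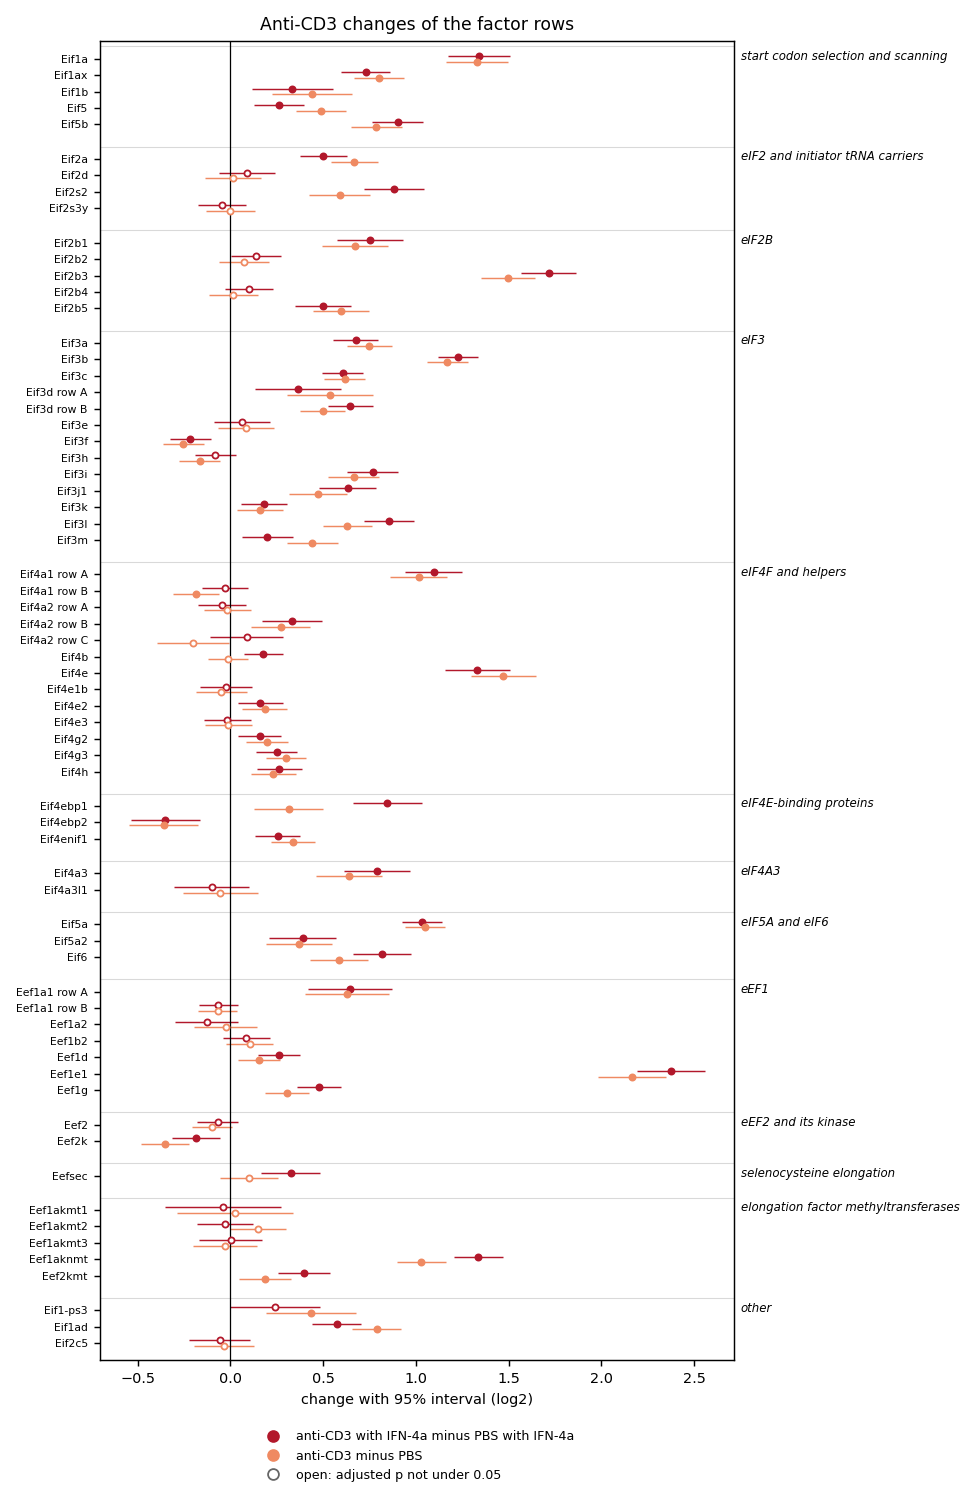
Anti-CD3 change (log2) of each of the 66 factor rows with its 95% interval, by factor complex, in the presence (dark red) and absence (orange) of IFN-4a; open points did not reach an adjusted p under 0.05. Points of both colours lie close together for most rows, far right for Eef1e1 and Eif2b3 and left of 0 for Eif3f, Eif4ebp2 and Eef2k.

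With IFN-4a alone the 18 lowered rows came from most complexes: 5 of 13 in eIF3, 2 of 5 in eIF2B and 2 of 13 in eIF4F. The others were 2 of 7 in the eEF1 group (Eef1g and Eef1e1), 2 of 5 methyltransferases, and 1 each in the start codon, 4E-binding, eIF5A, eEF2 and selenocysteine groups. The fall was 0.17 to 0.45 on the log2 scale, and each of the 18 rows lay lower on every PBS with IFN-4a array than on every PBS array. The 18 were called on these same arrays, so this lack of overlap is not separate evidence. Rows that were not called, such as Eif5b, Eif2d and Eif2s2, showed it too. How many of all 23521 rows lay wholly lower with IFN-4a was not counted. In the other direction, 2810 of all 23521 rows and 2 of the 66 factor rows lay wholly higher on the PBS with IFN-4a arrays. Eef1aknmt, whose arrays are given above, fell by 0.45 (SE 0.062, adjusted p = 0.000293). Eif3l, an eIF3 subunit, read 0.20, 0.27 and 0.17 in cells given anti-CD3 and IFN-4a, 0.34, 0.50 and 0.42 in cells given anti-CD3, -0.64, -0.58 and -0.70 in resting cells given IFN-4a and -0.29, -0.17 and -0.17 in resting cells. It fell by 0.43 (SE 0.061, adjusted p = 0.000461), with no overlap between the resting groups. Eef2k fell by 0.38 (SE 0.060, adjusted p = 0.000979), Eif4ebp1 by 0.44 (adjusted p = 0.00451), Eif1ax by 0.33 (adjusted p = 0.00348), Eif2b3 by 0.32 (adjusted p = 0.00862), Eef2kmt by 0.30 (adjusted p = 0.00769) and Eif4b by 0.30 (adjusted p = 0.00124). These 8 rows kept their call under all alternatives tried, which include leaving out each array. The other 10 lost it when single arrays were left out: without PBS replicate 2 the count was 8 rows lower, and without PBS with IFN-4a replicate 2 it was 11. Of these rows Eef1g was lost without PBS replicate 2 (adjusted p = 0.0622), Eif3i without PBS replicate 2 (adjusted p = 0.0502) and Eif4a2 row C without PBS replicate 2 (adjusted p = 0.053). The mean of the 3 Eif4a2 rows changed by -0.21 and did not pass (adjusted p = 0.0564). Eef1e1 was lost without PBS with IFN-4a replicate 1 or 2 or PBS replicate 1 or 2 (adjusted p up to 0.0817), and Eefsec without PBS with IFN-4a replicate 2 or PBS replicate 2 or 3 (adjusted p up to 0.114). Eif5a2 was lost without PBS with IFN-4a replicate 1 or 2 or PBS replicate 1, 2 or 3 (adjusted p up to 0.136), and Eif3d row B without PBS with IFN-4a replicate 1, 2 or 3 or PBS replicate 2 or 3 (adjusted p up to 0.0875). Eif3d row A changed by 0.046, and the mean of both Eif3d rows by -0.086, which did not pass (adjusted p = 0.451). Eif3h was lost without anti-CD3 replicate 1 or 2 or PBS with IFN-4a replicate 1, 2 or 3 or PBS replicate 1 or 2 (adjusted p up to 0.133). Eif3b was lost without anti-CD3 with IFN-4a replicate 1 or 3 or anti-CD3 replicate 1 or 2 or PBS with IFN-4a replicate 1, 2 or 3 or PBS replicate 2 or 3 (adjusted p up to 0.138), and Eif2b1 without anti-CD3 with IFN-4a replicate 1 or 3 or anti-CD3 replicate 1 or PBS with IFN-4a replicate 1, 2 or 3 or PBS replicate 1 or 2 (adjusted p up to 0.143). Quantile normalisation also ended the Eif3b call (-0.10, adjusted p = 0.224), as did a fit of only the groups compared and a replicate block. Eif4e (0.11, 95% interval -0.070 to 0.28) and Eif1a (-0.0088, -0.18 to 0.16) did not pass. Without PBS replicate 1 Eif4e was called higher (0.21, adjusted p = 0.0466), the one factor row called higher with IFN-4a under any alternative tried. Left-out arrays also added lower calls for Eef1d (without PBS replicate 3, adjusted p = 0.0406), Eif4a2 row B (without anti-CD3 with IFN-4a replicate 2, adjusted p = 0.040) and Eif4a3 (without anti-CD3 with IFN-4a replicate 1, adjusted p = 0.0472).

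In stimulated cells Eif1ax was the one row called, and it fell by 0.40 with IFN-4a (SE 0.062, adjusted p = 0.00172) and kept its call under all 21 alternatives. Its arrays with anti-CD3 and IFN-4a, given above, were all below those with anti-CD3. Eef1akmt2, a lysine methyltransferase of eEF1A, read -0.048, -0.23 and -0.015 with anti-CD3 and IFN-4a, 0.12, 0.15 and 0.20 with anti-CD3, -0.023, -0.19 and 0.015 with PBS and IFN-4a, and 0.022, -0.018 and 0.018 with PBS. Its arrays with anti-CD3 and IFN-4a were all below those with anti-CD3. Its change of -0.25 (adjusted p = 0.0735) and that of Eef2k, -0.22 (adjusted p = 0.0791), did not pass. Eef1akmt2 passed with a replicate block (adjusted p = 0.0413) and with quantile normalisation (-0.26, adjusted p = 0.0467), and Eif5a2 without PBS with IFN-4a replicate 3 (-0.28, adjusted p = 0.0436). With array weights 6 rows were lower, while the share of all rows called was 6.16% against 3.32% in the fit without weights, the added ones being Eif2b1, Eif3i, Eif3l, Eif4a2 row B and Eif5a2. Of all 66 rows, 55 had a change below 0 with IFN-4a in stimulated cells and 50 in resting cells, beside 12052 and 12535 of all 23521 rows. At 8 or above these were 45 and 44 of 52 factor rows, beside 4724 and 4559 of the 6777 rows.

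**Figure D4:**
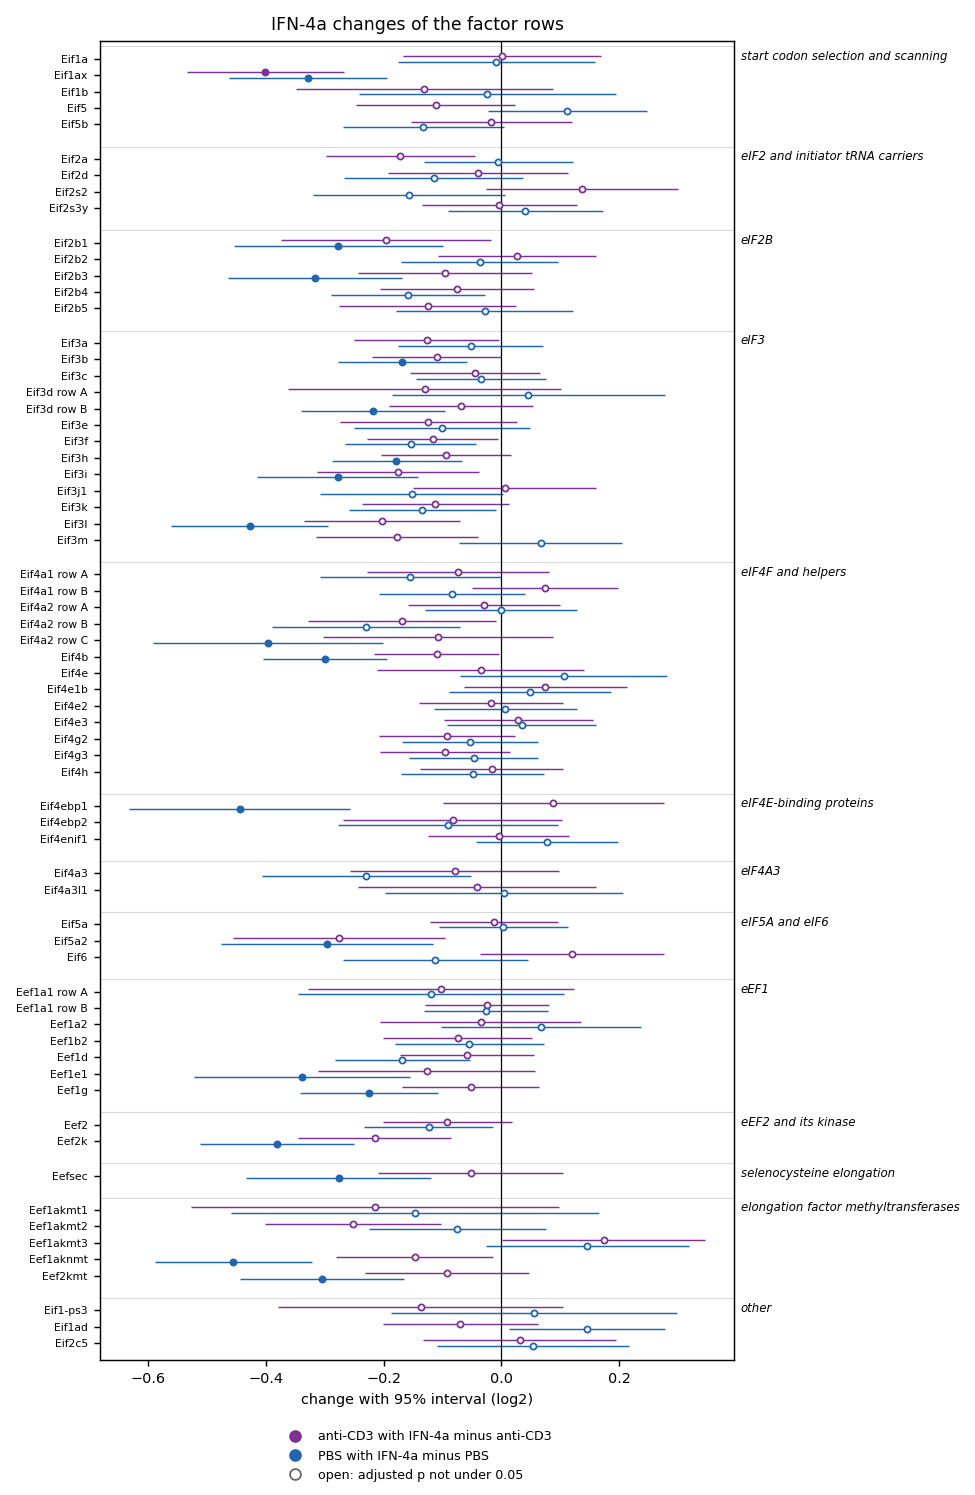
IFN-4a change (log2) of each of the 66 factor rows with its 95% interval, by factor complex, in stimulated (purple) and resting (blue) cells; open points did not reach an adjusted p under 0.05. The 18 filled blue points lie between -0.45 and -0.17, and Eif1ax has the one filled purple point.

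The other genes of the pathway were taken from a list of regulators, release factors and binding partners, measured by 35 rows of 33 genes. That list too was chosen with earlier results of these data known. With anti-CD3, 20 rows rose and 4 fell in the presence of IFN-4a, where 12.8% and 14.5% of all rows did, and 21 rose and 5 fell in its absence, where 13.9% and 17.5% did. With IFN-4a, 1 of the 35 (2.86%) rose and 0 fell in stimulated cells, a share of rises near the 1.97% of all rows. There 8 of the 35 and 3494 of all 23521 rows had an unadjusted p under 0.05. In resting cells 1 rose and 8 fell, beside 4.17% and 8.08% of all rows. Myc, a transcription factor that drives ribosome and factor genes, read 1.28, 1.43 and 1.25 on the anti-CD3 with IFN-4a arrays, 1.38, 1.41 and 1.22 on the anti-CD3 arrays, -1.22, -1.25 and -1.41 on the PBS with IFN-4a arrays and -1.42, -1.52 and -1.29 on the PBS arrays. It rose by 2.61 with IFN-4a (adjusted p = 3.42e-11) and 2.75 without (adjusted p = 2.18e-11), and did not pass with IFN-4a in stimulated (-0.016) or resting cells (0.12). Larp1, which holds back messengers of ribosomal proteins, rose by 1.35 with IFN-4a and 1.33 without, Bzw2, an eIF5 mimic, by 1.5 with IFN-4a and 1.26 without, the release factor Etf1 by 1.1 with IFN-4a and 1.11 without, and the ribosome recycling factor Abce1 by 0.97 with IFN-4a and 1.0 without. Bzw2 fell by 0.48 with IFN-4a in resting cells (adjusted p = 0.000277).

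The 4 kinases that phosphorylate eIF2 and so block initiation did not move together. Eif2ak2, the interferon-induced kinase PKR, read 1.33, 1.16 and 1.39 in cells given anti-CD3 and IFN-4a, -1.42, -1.22 and -1.16 in cells given anti-CD3, 1.53, 1.56 and 1.28 in resting cells given IFN-4a and -1.90, -1.91 and -1.82 in resting cells. It rose by 2.56 with IFN-4a in stimulated cells (adjusted p = 3.37e-10) and 3.33 in resting cells (adjusted p = 1.15e-11), and the difference of -0.77 passed (adjusted p = 0.00791). Eif2ak3, the endoplasmic reticulum stress kinase PERK, read -0.84, -0.51 and -0.62 with anti-CD3 and IFN-4a, -0.46, -0.36 and -0.31 with anti-CD3, 0.31, 0.34 and 0.35 with PBS and IFN-4a, and 0.73, 0.89 and 0.82 with PBS. It fell by 0.99 with anti-CD3 in the presence of IFN-4a (adjusted p = 3.37e-07) and by 1.19 in its absence (adjusted p = 5.18e-08), and by 0.48 with IFN-4a in resting cells (adjusted p = 0.00135). Eif2ak4, the amino acid sensor GCN2, rose by 0.31 with anti-CD3 in the presence and 0.25 in the absence of IFN-4a, and fell by 0.32 with IFN-4a in resting cells (adjusted p = 0.0136). Eif2ak1, the haem-regulated kinase, did not pass in any comparison.

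Markers of the cell type moved with anti-CD3 as well. Cd3d, Cd3g and Cd8b1 fell in both settings, by 0.32 to 0.41 with IFN-4a and 0.26 to 0.64 without, while Cd8a and Cd3e did not pass. Of the other cells' markers the B cell gene Cd79b fell (by 0.43 with IFN-4a and 0.69 without), Cd79a fell by 0.21 in the presence of IFN-4a and had a change of -0.054 in its absence, the CD4 T cell gene Cd40lg rose (by 0.74 with IFN-4a and 1.04 without) and the myeloid gene Itgax rose (by 0.41 with IFN-4a and 0.56 without); no other row of these lists passed with anti-CD3. With IFN-4a none of them passed except Cd3d, which fell by 0.24 in resting cells. The mean over the 4 B cell rows was -0.097 to -0.036 on the anti-CD3 with IFN-4a arrays, -0.15 to -0.025 on the anti-CD3 arrays, 0.056 to 0.10 on the PBS with IFN-4a arrays and 0.043 to 0.14 on the PBS arrays. The mean over the 3 CD4 T cell rows was 0.064 to 0.11 on the anti-CD3 with IFN-4a arrays, -0.0079 to 0.20 on the anti-CD3 arrays, -0.17 to -0.024 on the PBS with IFN-4a arrays and -0.25 to -0.11 on the PBS arrays. Over the 6 myeloid rows it was -0.045 to 0.079 with anti-CD3 and IFN-4a, -0.11 to 0.095 with anti-CD3, -0.018 to 0.0077 with PBS and IFN-4a, and -0.050 to 0.020 with PBS. The part of other cells in the factor results was not tested.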

How the data were processed

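RNA of 4 groups of 3 samples was labelled with biotin and hybridised to single-channel arrays, per the labels' protocols. The deposited series table holds values taken here as log2, and the values themselves show that they had been centred on each row's median over the 12 arrays (largest row median 5e-07 in size). No label or header names the normalisation, the summary of probes or the log base. Base 10 is not possible, since decimal steps kept in the values show rows at 8 or more before centring; with natural logs the folds would be larger. Arrays give no count depth, and their number limits the precision.

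Rows were named through the platform annotation: 23521 had 1 symbol, 1814 several and 8458 none, and all 66 factor rows matched RefSeq by gene ID with the same symbol. One linear model with 4 group means was fitted to the 23521 rows in R 4.3.3 with limma 3.58.1 (8 residual degrees of freedom, 4.95 prior), and 5 contrasts were tested, each adjusted by Benjamini-Hochberg over all rows. The fit was tested on simulated data first. Alternatives were other row sets, one value per gene, quantile normalisation, array medians, array weights, only the groups compared, a replicate block and each array left out. Calls said to be lost without named arrays could also be ended by other alternatives, not all of which are listed.

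Named rows were the 2 with the largest anti-CD3 change in the absence of IFN-4a in each factor complex (called rows only), the 3 with the smallest p in each interferon comparison and in their difference, and the 6 most changed other genes of the pathway; other rows were added to complete a complex after their values were seen. The members and the lists were chosen with earlier results of these data known.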

Additional observations from a re-analysis of the deposited data

How the results depend on the processing

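With the replicate number as a block, 42 rows passed for anti-CD3 with IFN-4a (39 higher, 3 lower), 45 without it (39 higher, 6 lower), 2 for IFN-4a in stimulated cells, 17 in resting cells and 1 for the difference (Eif4ebp1, adjusted p = 0.0336). The labels do not say whether the numbers pair the samples, and the main fit used no pairing. Deviations of same-numbered arrays of different groups correlated at -0.0787 to 0.266 (median 0.0738, against -0.0514 for other numbers). Of the 12 arrays, 10 correlated best with their own number. For IFN-4a in stimulated cells quantile normalisation gave 2 rows (Eef1akmt2 added, as with the block), array weights 6 and a fit of rows at 8 or above 2 (Eif3l added). The difference passed for 1 row (Eif4ebp1) with array weights (adjusted p = 0.0277) and among rows at 8 or above (adjusted p = 0.0168). Rows at 8 or above were chosen by their 6 highest arrays in these same data, and fewer rows were adjusted for. The added Eif3l and Eif4ebp1 calls among them are therefore descriptive. For IFN-4a in resting cells a fit of only the groups compared gave 11 rows and quantile normalisation 13. With 1 array left out the counts were 38 to 45 for anti-CD3 with IFN-4a, 41 to 45 without it, 1 to 2 for IFN-4a in stimulated cells, 8 to 19 in resting cells and 0 to 1 for the difference. In these fits the group with 2 arrays is assumed to vary like the others. Averaging the rows of a gene reversed Eef1a1 row B to 0.29 with IFN-4a and 0.28 without, and Eif4a1 row B to 0.53 and 0.41, since each mean includes the raised row A. Under every alternative 34 of 42 raised and 2 of 3 lowered rows kept their call for anti-CD3 with IFN-4a, 36 of 41 and 3 of 5 without it, 8 of 18 lowered rows for IFN-4a in resting cells, and 1 of 1 in stimulated cells. Quantile normalisation and array medians moved the median of all rows by at most 0.022. For the difference, a fit of only the groups compared is the same as the fit reported and gave no separate value. Where no construction is named, the cause was not tested.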
